A study of Mus musculus with 4 samples.

Results

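The MAP kinase phosphatases are the dual-specificity phosphatases, encoded by Dusp genes, that switch off the mitogen-activated protein kinases. All 10 catalytically active members were taken by gene name from the annotation of a mouse whole genome array: Dusp1, Dusp2, Dusp4, Dusp5, Dusp6, Dusp7, Dusp8, Dusp9, Dusp10 and Dusp16. They made up 10 of the 36413 gene names on the array and 11 of its 55681 probes, because Dusp16 had 2 probes and the other 9 genes had 1 each. The RNA came from C2C12, an established mouse myoblast line that divides in growth medium and can fuse into myotubes. One condition, siFxr1, had received an siRNA against Fxr1, which encodes an RNA-binding protein of the Fragile X family, and the other, siControl, a random siRNA of matching GC content. Both were transfected with a cationic lipid reagent and analysed 48 hrs later, with 2 experiments per condition and 4 one-colour arrays in all. The study uses the name siFxr1 for an siRNA against exon 14 of the Fxr1 mRNA. Its methods also name an siRNA against another exon and do not say which was on the arrays, so exon 14 is read from the name. On that reading the loss of Fxr1 rests here on 1 siRNA in 1 cell line, and the sequence is shown because it defines the treatment:
siFxr1: gcaauccauacagcuuacuugaua

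MAP kinases are activated when an upstream kinase phosphorylates a threonine and a tyrosine in their activation loop, and the Dusp enzymes remove both phosphates. Nuclear members (Dusp1, Dusp2, Dusp4 and Dusp5) are mostly encoded by genes that respond quickly to growth factors or stress, with Dusp5 acting on ERK alone. The cytoplasmic members Dusp6, Dusp7 and Dusp9 prefer ERK, and transcription of Dusp6 is a classical negative feedback of ERK signalling. Dusp8, Dusp10 and Dusp16 prefer the stress-activated kinases JNK and p38. In myoblasts, ERK and p38 are known to act on the choice between division and differentiation.

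Values are the log2 of the scanner software's background-corrected intensity, quantile-normalized between the arrays, so that a difference of 1 is a doubling. Each probe has 60 bases and its own brightness, so signals were compared between arrays and never between genes. Fxr1, the targeted gene, was lower in siFxr1 at both of its probes, by a log2 fold change of -3.31 (SE 0.29) at the brighter and -3.61 (SE 0.28) at the other. Within an experiment both samples were placed on 1 slide, so experiment and slide cannot be told apart. RNA integrity was scored at 9 in 3 samples and at 8 in siFxr1 from experiment 1. Between 45.4% and 52.9% of the probes were well above background on an array, and 0 spots were saturated. Precision is limited by having 2 arrays per condition, for which no two-sided exact permutation test can give a p below 0.333. In RNA from whole cultures, more cells of one kind and more RNA per cell cannot be told apart.

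All 7 markers of differentiated muscle and 5 of 6 myoblast markers passed background on each of the 4 arrays, whereas the myoblast gene Myf5 was on 0 arrays. The summed linear signal of the differentiated muscle markers was 241245 in siControl and 215033 in siFxr1 of experiment 1, against 61887 and 51490 in experiment 2. All 7 were thus higher in experiment 1 than in experiment 2, in both conditions, and their median log2 fold change between the conditions was -0.10. Of the markers of other cell types, 2 of 6 leukocyte, 1 of 3 endothelial, 1 of 3 adipocyte and 0 of 3 epithelial markers were well above background on all 4 arrays. Those detected on all 4 arrays included the leukocyte genes Itgam (log2 signal 11.33 to 13.81) and Cd3e (9.40 to 10.60) and the adipocyte gene Fabp4 (7.93 to 10.13), and the epithelial gene Krt8 was well above background on 3. The leukocyte genes Ptprc and Emr1, the adipocyte genes Adipoq and Plin1 and the epithelial genes Epcam and Cdh1 were so on 0 arrays. The detected leukocyte genes went opposite ways between the experiments, Itgam being lower in experiment 1 by a log2 difference of -2.03 and Cd3e higher by 1.12.

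Dusp2, Dusp5 and Dusp6 had signals at least 2-fold higher in siFxr1 than in siControl in both experiments, and 0 members were at least 2-fold lower in both. Among the 25523 probes that passed a filter on dim signal and had a value on each array, 1.94% were at least 2-fold higher in both experiments and 1.72% at least 2-fold lower. The filter kept a probe if both arrays of siFxr1 or both of siControl showed it well above background, and all 10 members passed it, 9 of them being well above background on all 4 arrays. Dusp5 passed only through siFxr1, where it was high, so the filter favoured its place among the higher members. Altogether 8 of the 10 members were higher in siFxr1 in both experiments, as were 33.2% of the probes that passed the filter. Lower in both were 0 members and 31% of these probes, and Dusp7 and Dusp8 went opposite ways. For 5 members, Dusp1, Dusp2, Dusp5, Dusp6 and Dusp16, both siFxr1 arrays lay above both siControl arrays, which held for 15.9% of the probes that passed the filter. The opposite order held for 0 members and for 14.8% of the probes. No member was called changed by the main test, limma with the condition as its only term and a call at a B value (the log odds of a change) above 0, which called 0% of the 55681 probes (0 probes, with 2764 at an unadjusted p under 0.05). The members had limma adjusted p values from 0.950 to 0.998, and 3 of them, Dusp2, Dusp5 and Dusp6, had an unadjusted p under 0.05.

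**Figure D1:**
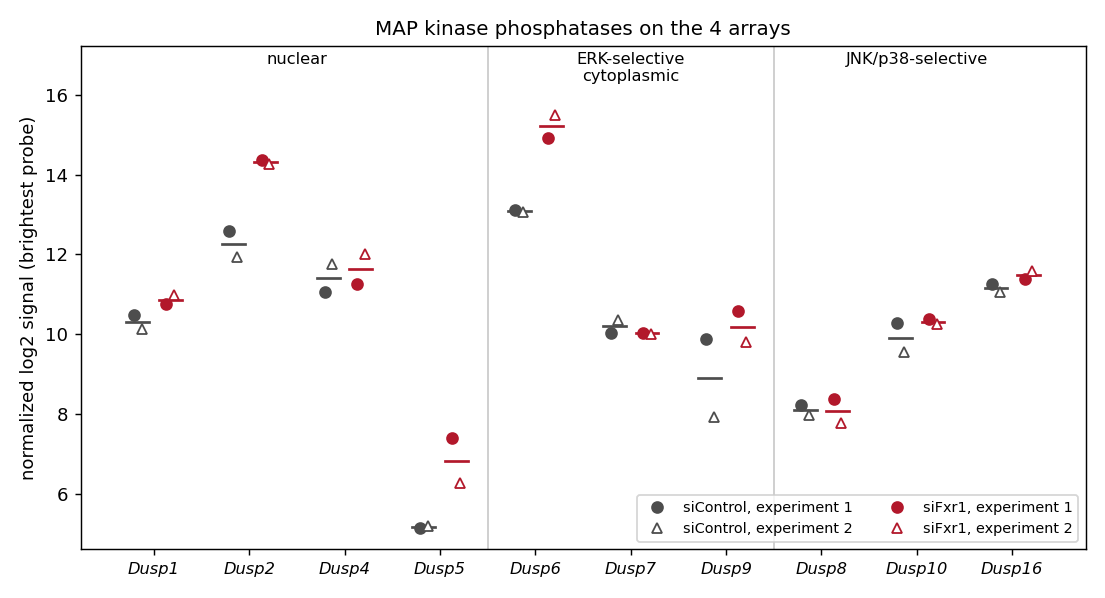
Normalized log2 signal (vertical axis) of the brightest probe of each of the 10 MAP kinase phosphatases, grouped by role, with 1 point per array (grey siControl, red siFxr1, filled circles experiment 1, open triangles experiment 2) and a line at the mean of each condition. The siFxr1 points of Dusp2, Dusp5 and Dusp6 sit well above the siControl points, whereas those of Dusp4, Dusp7, Dusp8, Dusp9 and Dusp10 overlap, and heights should be compared within a gene only.

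Calls appeared when the experiment was added as a block and dim probes were left out. In that fit, Dusp6 had a B of 1.38 (limma adjusted p = 0.0381) and Dusp2 a B of 1.32 (limma adjusted p = 0.0385). Dusp5 passed the filter only through siFxr1 and is left out here, and the remaining members had a B below 0. The same fit called 0.826% of its 25540 probes higher in siFxr1 and 0.56% lower. With the block and all probes, the B of Dusp6 was -2.55 and that of Dusp2 -2.54 (limma adjusted p = 0.535 for each). When the 4 ratios of siFxr1 over siControl arrays were taken as observations, which understates the error because ratios share arrays, Dusp6 and Dusp2 had B values of 1.99 and 1.52, and 1.03% of the probes were called higher.

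Dusp6, the cytoplasmic phosphatase of the ERK feedback, had the largest difference of the family over the 4 arrays. Its probe (A_51_P502614, chromosome 10, 98729985 to 98730044 on mm9, plus strand) gave 14.91 and 15.50 in siFxr1 and 13.10 and 13.06 in siControl of experiments 1 and 2. Both siFxr1 arrays were clearly above both siControl arrays, and the siControl arrays differed from each other by only 0.05. The log2 fold change was 2.13 (SE 0.27, 95% interval 1.29 to 2.96), which is 4.37-fold, and it was 1.81 in experiment 1 and 2.45 in experiment 2. It ranked 162 from the top among the probes that passed the filter. The order within the family depended on the arrays, since without siControl of experiment 1 Dusp6 was at 2.15, below Dusp2 (2.36) and Dusp9 (2.27), and without siFxr1 of experiment 2 it was at 1.83, below Dusp5 (2.23) and Dusp2 (2.08).

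Dusp2, a nuclear phosphatase first known from activated lymphocytes, came close behind. Its probe (A_52_P399934, chromosome 2, 127163930 to 127163989 on mm9, plus strand) gave 14.35 and 14.26 in siFxr1 against 12.59 and 11.95 in siControl. The siFxr1 arrays nearly coincided, and the spread lay between the siControl arrays, with an SD of 0.45 against 0.06 in siFxr1. The log2 fold change was 2.04 (SE 0.29, 95% interval 1.15 to 2.93), a 4.11-fold difference, with 1.76 in experiment 1 and 2.31 in experiment 2, and its rank was 182.

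Dusp5, the nuclear phosphatase that acts on ERK alone, differed by a similar size but was dim. Its probe (A_55_P2063237, chromosome 19, 53615682 to 53615741 on mm9, plus strand) gave 7.40 and 6.27 in siFxr1 and 5.15 and 5.20 in siControl, and it was well above background on 1 of the 2 siControl arrays. Both siFxr1 arrays were above the siControl arrays, and the larger difference lay in experiment 1 (2.26 against 1.07 in experiment 2). The log2 fold change was 1.66 (SE 0.47, 95% interval 0.24 to 3.09). Dusp5 passed the filter only through siFxr1, where it was high, so its B in the filtered fit is not given. The log2 fold change fell to 0.69 with no background correction, 0.70 in the authors' normalized table, 0.88 with normexp correction and 1.33 with the median signal minus local background. Under each of these settings the count of members at least 2-fold higher in both experiments fell to 2. Without siFxr1 of experiment 1 the log2 fold change of Dusp5 was 1.10.

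Promoters are shown for these 3 members and for Dusp1, the immediate early member of the nuclear group, to set the letters before their start sites side by side. Of the 10 members, 8 had an entry in the promoter table, made from RefSeq on GRCm38.p6, and each sequence below holds the 250 bases before the annotated start, 5′ to 3′ on the strand of the gene. The intervals are chr10:99262981-99263230 (plus strand) for Dusp6, chr2:127335909-127336158 (plus) for Dusp2, chr19:53528895-53529144 (plus) for Dusp5 and chr17:26508473-26508722 (minus) for Dusp1. Capitals mark matches to the motifs named after the sequences:
Dusp6: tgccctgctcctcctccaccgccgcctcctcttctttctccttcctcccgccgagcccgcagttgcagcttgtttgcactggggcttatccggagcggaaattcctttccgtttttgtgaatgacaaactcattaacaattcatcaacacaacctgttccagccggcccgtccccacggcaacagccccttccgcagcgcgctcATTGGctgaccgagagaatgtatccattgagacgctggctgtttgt
Dusp2: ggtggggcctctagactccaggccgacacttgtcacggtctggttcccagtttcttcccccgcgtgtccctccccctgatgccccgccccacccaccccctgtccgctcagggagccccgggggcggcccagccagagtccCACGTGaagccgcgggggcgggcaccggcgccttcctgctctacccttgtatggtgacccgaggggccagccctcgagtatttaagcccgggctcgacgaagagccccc
Dusp5: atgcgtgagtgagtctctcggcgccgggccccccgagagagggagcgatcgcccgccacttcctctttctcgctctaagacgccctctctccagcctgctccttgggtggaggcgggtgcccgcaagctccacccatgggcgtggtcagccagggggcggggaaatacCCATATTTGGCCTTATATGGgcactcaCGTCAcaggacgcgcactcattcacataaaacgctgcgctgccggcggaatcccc
Dusp1: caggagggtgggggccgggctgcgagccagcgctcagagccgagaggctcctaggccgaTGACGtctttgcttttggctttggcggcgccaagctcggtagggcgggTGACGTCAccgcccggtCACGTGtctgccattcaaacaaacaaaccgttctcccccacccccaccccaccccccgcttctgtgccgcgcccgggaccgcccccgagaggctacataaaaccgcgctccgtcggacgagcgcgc

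The motifs searched on both strands were the cAMP response element TGACGTCA, its 5-base core TGACG (which overlaps the full element), the AP-1 site TGANTCA, the TATA box TATAAA, the E-box CACGTG, the ETS core CCGGAA, the CCAAT box and the CArG box, which serum response factor binds. Dusp5 held 2 adjoining CArG boxes, between 82 and 63 bases before its start, a motif found in 1.47% of the 32851 promoters searched over the same length, and 1 match to TGACG. Dusp1 held 1 full cAMP response element, 143 to 136 bases before its start, as did 1.55% of all promoters, and a further match to TGACG, which occurs in 17.8%. Dusp8, which belongs to the JNK and p38 group, held 2 full elements. The start used for Dusp7, Dusp8 and Dusp16 was not the 5′ end of their gene in RefSeq. GC content of the windows ran from 56.4% (Dusp6) to 77.2% (Dusp7), against a median of 52.4% over all promoters, so these shares compare unlike sequences. Dusp2 and Dusp1 each held 1 E-box (6.02% of promoters), and Dusp6 held 1 CCAAT box (33.8%), a motif also found in Dusp7, Dusp8, Dusp10 and Dusp16. None of the 8 held AP-1 sites (6.75% of promoters), TATA boxes (12.4%) or the letters CCGGAA (12%) in this window. Other forms of the ETS site were not searched, so their presence is not known from this search. No motif of the list was common to Dusp2, Dusp5 and Dusp6.

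Dusp9, a cytoplasmic ERK phosphatase, was higher in siFxr1 in each experiment, but its arrays overlapped. Its probe (A_52_P648601, chromosome X, 70888467 to 70888526 on mm9, plus strand) gave 10.59 and 9.80 in siFxr1 and 9.88 and 7.93 in siControl. The siControl array of experiment 2 was far below the other 3. The log2 fold change of 1.29 (SE 0.84, 95% interval -1.27 to 3.85) was 0.71 in experiment 1 and 1.87 in experiment 2. With the experiment as a block the 95% interval was 0.11 to 2.47 (limma adjusted p = 0.554). In the fit without the block, the log2 fold change came to 0.31 without siControl of experiment 2 and to 2.27 without siControl of experiment 1. It thus depended there on which control array was used. These values also carry the log2 difference of Dusp9 between the experiments, which was 1.37.

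Dusp7, the other cytoplasmic ERK phosphatase, stayed near its control level. Its probe (A_55_P1993836, chromosome 9, 106277985 to 106278044 on mm9, plus strand) gave 10.04 and 10.01 in siFxr1 and 10.04 and 10.36 in siControl, so the conditions overlapped in experiment 1 and siFxr1 was the lower in experiment 2. The log2 fold change was -0.17 with a 95% interval from -0.77 to 0.42. The upper end of that interval lies below the lower end of the interval of Dusp6, the member most like it in location and preferred kinase.

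Among the other nuclear members, Dusp1 was higher in siFxr1 by less than 2-fold. Its probe (A_51_P430900, chromosome 17, minus strand) gave 10.77 and 10.97 in siFxr1 and 10.49 and 10.13 in siControl, with no overlap, for a log2 fold change of 0.56 (SE 0.22, 95% interval -0.10 to 1.23). Its annotation on mm9 covers only 26642526 to 26642536, which is shorter than the probe. Dusp4 (A_51_P518051, chromosome 8, 35882045 to 35882104, plus strand) gave 11.27 and 12.01 in siFxr1 and 11.05 and 11.75 in siControl. Its experiments stood further apart than its conditions, yet the difference within an experiment was alike in both, 0.22 and 0.26. The log2 fold change was 0.24 (SE 0.43, 95% interval -1.06 to 1.54), and -0.36 to 0.84 was the interval with the experiment as a block.

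The JNK and p38 phosphatases all differed by less than 2-fold in each experiment. Dusp10 (A_51_P104418, chromosome 1, 185898608 to 185898667, plus strand) gave 10.38 and 10.25 in siFxr1 and 10.27 and 9.55 in siControl, which makes a log2 fold change of 0.40 (95% interval -0.58 to 1.38). It came to 0.04 without siControl of experiment 2, the lowest of its 4 arrays. The brighter probe of Dusp16 (A_66_P116252, chromosome 6, 134665783 to 134665842, minus strand) gave 11.39 and 11.58 in siFxr1 and 11.25 and 11.06 in siControl, which did not overlap, and a log2 fold change of 0.33 (95% interval -0.21 to 0.87). Its other probe (A_52_P492081, 134668003 to 134668062) gave 5.69 and 6.06 against 5.88 and 5.80, with a log2 fold change of 0.03 and an overlap, so the probes of Dusp16 disagreed on the order of the arrays. Dusp8 (A_51_P263246, chromosome 7, 149267534 to 149267593, minus strand) gave 8.39 and 7.79 in siFxr1 and 8.24 and 7.99 in siControl. Its log2 fold change of -0.02 (95% interval -0.92 to 0.87) turned to between 0.01 and 0.04 under the other scalings and background corrections. The array's annotation gives positions of probes without saying whether they lie in coding exons or in UTRs.

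**Figure D2:**
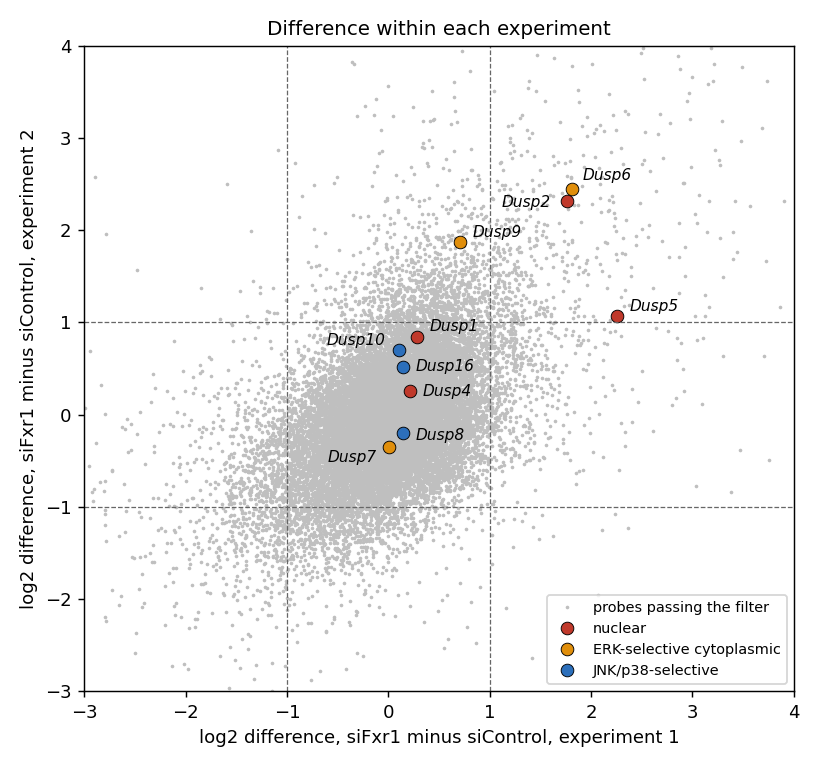
Log2 difference between siFxr1 and siControl in experiment 1 (horizontal) and in experiment 2 (vertical) for the 10 members, coloured by role, over the 25523 probes that passed the filter (grey), with dashed lines at a 2-fold difference. Dusp2, Dusp5 and Dusp6 lie beyond 2-fold in both experiments, Dusp9 in experiment 2 only, and the other 6 members in neither, while 94 probes fall outside the axes, which run from -3 to 4.

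By role, the median log2 fold change was 1.29 for the 3 cytoplasmic ERK-selective members (range -0.17 to 2.13), 1.11 for the 4 nuclear members (0.24 to 2.04) and 0.33 for the 3 JNK/p38-selective members (-0.02 to 0.40). Over all 10 members it was 0.48, and over the probes that passed the filter 0.02. The 4 members that act mainly on ERK (Dusp5, Dusp6, Dusp7 and Dusp9) had a median of 1.48, which lies between Dusp9 and Dusp5. Dusp9 ran from 0.31 to 2.27 with 1 array left out. Dusp5, which passed the filter only through siFxr1, ran from 0.69 to 1.77 over the processing settings. The JNK and p38 group had the lowest median of the role groups in experiment 1 (0.14, against 0.71 and 1.02) and in experiment 2 (0.51, against 1.87 and 0.96). Members are not replicates and each group spans few genes, so these medians are descriptions with no test. The ERK-selective group was not uniform, since Dusp7 had a lower value than each JNK and p38 phosphatase, with overlapping intervals. The median of the cytoplasmic group is the value of Dusp9, and it ranged from 0.31 to 2.15 when 1 array was left out, the lowest without siControl of experiment 2 and the highest without siControl of experiment 1.

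**Figure D3:**
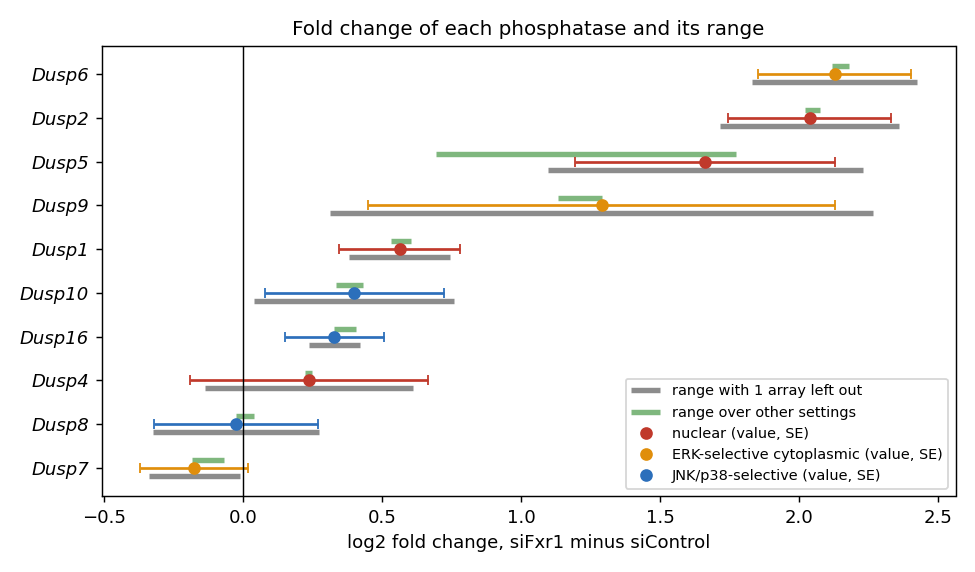
Log2 fold change of siFxr1 over siControl (horizontal axis) of each member at its brightest probe, coloured by role with its SE, above a grey bar for the range with 1 of the 4 arrays left out and below a green bar for the range over the other processing settings. Dusp6 and Dusp2 stay above 1.7 throughout, Dusp5 spans 0.69 to 1.77 over the settings, and Dusp9 spans 0.31 to 2.27 over the arrays left out.

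Between experiment 1 and experiment 2, the largest differences lay in Dusp9 and Dusp4. In the fit with both terms, 0 members had a B above 0 for the experiment, against 1.19% of all probes. Dusp9 was higher in experiment 1 by a log2 difference of 1.37 (95% interval 0.19 to 2.56, limma adjusted p = 0.212), and Dusp4 was lower there by -0.72 (95% interval -1.32 to -0.12, limma adjusted p = 0.202). For these members and for Dusp8 and Dusp10, 4 of 10 in all, the experiments differed by more than the conditions. Dusp2 and Dusp6 differed between experiments by 0.37 and -0.27, well under their difference between conditions. The markers of differentiated muscle were higher in experiment 1 by a median of 2.12, and their part in the difference of Dusp9 or Dusp4 was not tested. In 7 of the 10 members the siFxr1 difference was the larger in experiment 2, the exceptions being Dusp5, Dusp7 and Dusp8. For this count and the 4 of 10 above, no share over all probes is given, so both describe the members only.

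Of the 4 lists that stand for the rest of the pathway, the transcripts that ERK is known to induce had the highest median. Of 16 such genes, 15 passed the filter, 0 were called by the main test, and 10 were higher in siFxr1 in both experiments and 1 lower, beside the 33.2% and 31% of all probes that passed the filter, and the median log2 fold change was 0.54. The list was chosen with earlier results of these data known and supports nothing by itself. The genes at least 2-fold higher in both experiments were Spry1 and Spry4, which encode Sprouty inhibitors of growth factor signalling to ERK. Spry1 gave 10.81 and 10.30 in siFxr1 and 9.44 and 7.45 in siControl, which makes 2.11 on the log2 scale (SE 0.82). Spry4 gave 6.63 and 6.0 against 4.43 and 3.15, and was well above background on both siFxr1 arrays and on 0 siControl arrays. With the lowest signal well above background on each siControl array in place of its own, its signal was 3.37-fold higher in siFxr1. That value is not a strict lower limit. On siControl of experiment 1, Dusp5 was not well above background at 5.15, while the lowest signal that was so was 4.49. Spry4 passed the filter only through siFxr1, where it was high, so its B in the filtered fit is not given, and the B of Spry1 there was -0.60. Their paralog Spry2 did not share this order, with 8.32 and 6.71 in siFxr1 against 8.62 and 6.73 in siControl.

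The kinases themselves were not among the genes at least 2-fold apart in both experiments. Of all probes that passed the filter, 1.94% were at least 2-fold higher in both and 1.72% lower, so 0 in a short list is near that share. Of 23 kinases, 21 passed the filter, with a median log2 fold change of -0.13 and a range from -0.68 to 0.71. By arm, the median was -0.18 for the ERK cascade, 0.24 for the JNK cascade, -0.08 for the p38 cascade and -0.31 for ERK5. Of 16 atypical dual-specificity phosphatases, which lack the kinase-binding domain of the MAP kinase phosphatases, 11 passed the filter and 0 were at least 2-fold apart in both experiments, with a median of -0.14. Of 6 phosphatases of other families that act on MAP kinases, 4 passed the filter, and Ptpn7, a tyrosine phosphatase of ERK and p38 best known from blood cells, was at least 2-fold higher in both. It gave 8.42 and 10.27 in siFxr1 and 6.12 and 7.38 in siControl, and its log2 fold change was 2.60 (SE 0.89) with a B of 2.51 in the fit with the block and the filter. Both siFxr1 arrays of Ptpn7 were above both siControl arrays, and both conditions were higher in experiment 2. The leukocyte gene Itgam was also higher in experiment 2 and Cd3e was lower there, and their part in the signal of Ptpn7 was not tested.

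**Figure D4:**
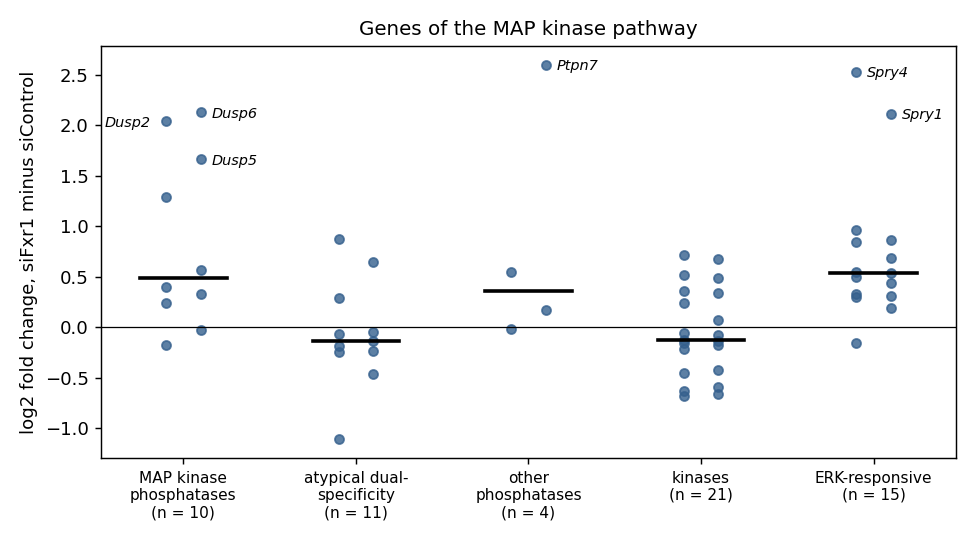
Log2 fold change of siFxr1 over siControl (vertical axis) for each gene that passed the filter, at its brightest probe, in the MAP kinase phosphatases and 4 lists of the pathway, with a line at the median of each list. Dusp2, Dusp5, Dusp6, Ptpn7, Spry1 and Spry4 stand above the other genes of their lists, the kinases spread from -0.68 to 0.71, and Spry4 is drawn at its measured difference although its siControl arrays were not well above background.

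Each pattern over the 4 arrays was also set beside those of other genes, by the Euclidean distance of log2 signals centred on their mean, over 16708 genes well above background on at least 2 arrays. Among the members, Dusp2 was the nearest to Dusp6, at a distance of 0.65. The 5 genes nearest to Dusp2 were 2010005H15Rik (0.19), Plxdc2 (0.25), Rimbp3 (0.29), Nxph3 (0.30) and Fam71b (0.30), against a median distance of 2.18 over all genes. Those nearest to Dusp6 were 4833427G06Rik (0.21), 9530002K18Rik (0.30), Abcb1a (0.34), Dnajc12 (0.38) and Nmu (0.45), with a median of 2.27. In siControl, Abcb1a (4.25 and 4.01) and Nmu (4.21 and 4.13) lay under the lowest signals well above background there (4.49 and 4.65). Both thus entered the comparison only through siFxr1, where they were high, and their distances rest partly on background signal. In siControl of experiment 2 alone, 2010005H15Rik (4.58) and Fam71b (4.33) also lay under that level. Plxdc2, for example, gave 9.52 and 9.52 in siFxr1 and 7.99 and 7.01 in siControl, with nearly equal siFxr1 arrays and a lower siControl array in experiment 2, as in Dusp2. The 9530002K18Rik transcript gave 8.77 and 9.66 against 6.97 and 7.23, with the higher siFxr1 array in experiment 2, as in Dusp6. The distances rest on 4 arrays and are descriptions.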

How the data were processed

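Each of 4 one-colour Agilent arrays carried RNA of 1 C2C12 sample, whose labels gave its condition and experiment. The authors deposited the spot intensities read with Agilent Feature Extraction 10.7.3.1 and annotated on mm9, background-corrected within arrays. A deposited table of intensities normalized by the authors ranks the spots as the raw median signal does, and it was used as an alternative.

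Work was done with limma 3.58.1 under R 4.3.3. The log2 of the background-corrected intensity was quantile-normalized over 59305 spots (control spots left out), between 145 and 177 outlier spots per array were left out, and spots of a probe were averaged. Quantile normalization, limma and a call at a B above 0 come from the study's methods. These also speak of means of ratios without naming the ratios, so a fit of the 4 ratios was an alternative. The study reports calls at that threshold, Dusp6 among them, whereas the main model here gave no call. It also reports higher Dusp6 mRNA by quantitative RT-PCR, with this and another siRNA against Fxr1. The main model, lmFit and eBayes (expected share of changed probes 0.01), had the condition as the only term on all 55681 probes, with Benjamini-Hochberg adjusted p values beside B. The brightest probe stood for a gene. Well above background means that the software marked at least 0.5 of a probe's spots so. The fits were tested on simulated data.

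The labels number the samples by experiment and slide, so the numbers pair them, and what was left after removing condition means correlated at 0.714 between the samples of an experiment. The methods call the experiments biological replicates, and the labels do not say how they were kept apart. A search for equal spot values between arrays found 0. The alternatives were 75th percentile scaling, normexp (offset 50), no background correction, the median signal minus local background with a floor of 1, the authors' table, a block for the experiment, the filter on dim probes, the 4 ratios, a trended variance prior and each array left out.

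The members and gene lists were chosen with earlier results of these data known, as were the promoter motifs. The text names all members, Fxr1, genes of a pathway list at least 2-fold apart the same way in both experiments, up to 5 per list, and the 5 genes nearest to Dusp2 and to Dusp6. Spry2 and the markers named were chosen after their values were seen.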

Additional observations from a re-analysis of the deposited data

How the results depend on the processing

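The log2 fold changes of Dusp1, Dusp2, Dusp5, Dusp6, Dusp7, Dusp9, Dusp10 and Dusp16 kept their direction under all alternatives run. With the replicate block alone 0 probes were called. With the replicate block and the filter on dim probes 354 were called, with the block and normexp 406, with the block and the median signal minus local background 345, and with the 4 ratios 1107. In these 4 fits the B of Fxr1, Dusp6 and Dusp2 was above 0, and no other member was called. Their log2 fold changes, in the order Fxr1, Dusp6 and Dusp2, were -3.31, 2.13 and 2.04 with the block and the filter and with the 4 ratios, -3.20, 2.15 and 2.04 with the block and normexp, and -3.17, 2.13 and 2.04 with the block and the median minus background. The limma adjusted p of Dusp6 with the block was 0.0381, 0.0843 and 0.0254 in the same order of fits.

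The median of the nuclear group, which lies between Dusp5 and Dusp1, was 0.74 with normexp, with and without the block, 0.97 with the median minus background, with and without the block, 0.64 with no background correction and 0.64 in the authors' table. Dusp8 turned to 0.0125 with 75th percentile scaling, 0.0405 with normexp, with and without the block, 0.0406 with no background correction, 0.0405 in the authors' table and 0.0376 with the median minus background, with and without the block. The experiment difference of Dusp6 turned from -0.27 to 0.24 with 75th percentile scaling. The cause was not tested. No scaling moved the median of the filtered probes beyond 0.07.

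With 1 array left out, the range was -0.32 to 0.28 for Dusp8, -0.13 to 0.61 for Dusp4, 0.88 to 1.27 for the nuclear median, 0.31 to 2.15 for the cytoplasmic ERK-selective median and 0.0406 to 0.42 for the JNK/p38-selective median, and 0 probes were called in each. A condition then has 1 array, which is assumed to vary like the other condition. Counts of members 2-fold apart in both experiments have no value with an array left out. Putting the lowest signal well above background in place of a probe's own was needed for 0 members, since none was below background on both arrays of a condition. Signal over background limits Dusp5 the most.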

Other observations

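Among the 11 atypical phosphatases that passed the filter, Styx, a catalytically inactive relative of the MAP kinase phosphatases, had the largest difference, a log2 fold change of -1.11 (SE 0.48). Its probe gave 8.65 and 8.13 in siFxr1 and 10.02 and 8.98 in siControl, so both siFxr1 arrays were below both siControl arrays, by 1.37 in experiment 1 and 0.85 in experiment 2. It was not called (B -1.85 with the block and the filter) and was chosen after its values were seen.

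Other ERK-responsive transcripts differed by less than Spry1. Etv4, an ETS factor, had differences of 0.51 and 1.41 in experiments 1 and 2, and Phlda1 had 1.00 and 0.73. Fos, the immediate early gene, had 0.53 and 0.54. Egr1, another immediate early gene, had 0.47 and -0.09, and the cyclin gene Ccnd1 -0.44 and 1.09. These genes were also chosen after their values were seen, and none was called by the main test.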
